A study of Arabidopsis thaliana with 6 samples.

Results

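The JAZ repressors of jasmonate signaling were followed in *Arabidopsis thaliana* seedlings that overexpressed a rice transcription factor. The members were the 10 genes *JAZ1* to *JAZ10*, and they were found on the array by matching the transcript named for each probe to the gene locus. This gave 13 of the 43603 probes, with a pair of probes each for *JAZ4*, *JAZ6* and *JAZ10* and a single probe for every other member. The loci were AT1G19180 (*JAZ1*), AT1G74950 (*JAZ2*, listed as *TIFY10B*), AT3G17860 (*JAZ3*), AT1G48500 (*JAZ4*), AT1G17380 (*JAZ5*), AT1G72450 (*JAZ6*), AT2G34600 (*JAZ7*), AT1G30135 (*JAZ8*), AT1G70700 (*JAZ9*, listed as *TIFY7*) and AT5G13220 (*JAZ10*). *JAZ3* lies on chromosome 3, *JAZ7* on chromosome 2, *JAZ10* on chromosome 5 and the other members on chromosome 1.

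Jasmonates are lipid-derived hormones made after wounding, insect feeding and infection. JAZ proteins bind MYC2 and related basic helix-loop-helix (bHLH) activators through their Jas motif, and recruit the adaptor NINJA and the co-repressor TOPLESS (TPL) through their TIFY domain. When jasmonoyl-isoleucine accumulates, it is held between the F-box protein COI1 and a JAZ protein, and the JAZ protein is then ubiquitinated and degraded. Many *JAZ* genes are themselves induced by MYC2, which makes their transcripts widely used reporters of jasmonate signaling in leaves.

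The study compared Col-0, the wild-type ecotype, with OsbHLH068OE, a transgenic line. In this line a promoter of cauliflower mosaic virus, which is active in most tissues, drives the rice bHLH gene *OsbHLH068* in the Col-0 background. Total RNA from aerial tissue of 17-day-old plants was labeled with Cy3 and hybridized to a single-color Agilent *Arabidopsis* oligo array, with 3 arrays per group that the labels call biological repeats. The comparison was made to find genes through which the rice factor acts on the salt response and on flowering. A single transgenic line was hybridized, so the transgene and its insertion site cannot be told apart. The paper describes later flowering and lighter aerial tissue in plants that overexpress the rice factor than in the wild type. Both groups were harvested at the same age, so they may also differ in developmental stage. What part stage has in the differences below was not tested. The methods state that labeled cRNA was pooled before hybridization without saying what was combined, and the P values below measure the spread between these arrays, which may in part be technical.

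The share of probe spots clearly brighter than the local background, as the scanner software judged it, was 70.9% to 74.0% per array. Median spot signals were 284 to 356 intensity units over a background of 29 to 32. Slide 1 held the first replicate of each group, and slide 2 held the second and the third. All 36 probes of 5 leaf genes passed that mark on all 6 arrays. Of 14 probes of 7 root genes, 7 passed it throughout, and all of these read *PYK10*. None of the leaf, root or flower marker probes was a differentially expressed probe (DEP), which is a probe with a log2 fold change beyond 1 in either direction and an unadjusted limma P under 0.05. Below that fold, the floral regulator *SEP3* had log2 fold changes of −0.78 and −0.91 without overlap between the groups (limma adjusted P = 0.208 and 0.121), and *AG* had 0.55 and 0.53 (limma adjusted P = 0.232 and 0.257). The other flower markers, *AP1*, *AP3* and *PI*, had log2 fold changes of −0.26, 0.002 and −0.26, and their groups overlapped. What part the flower markers have in the results below was not tested.

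Of the JAZ probes, 11 of 13 were well above background on all 6 arrays, and these read 9 of the 10 genes. *JAZ4* was the exception. Its first probe was well above background on 2 arrays of each group, and its second on 0 arrays of either group. No level of one probe is set against that of a different probe here, because probes differ in how strongly they bind.

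**Figure D1:**
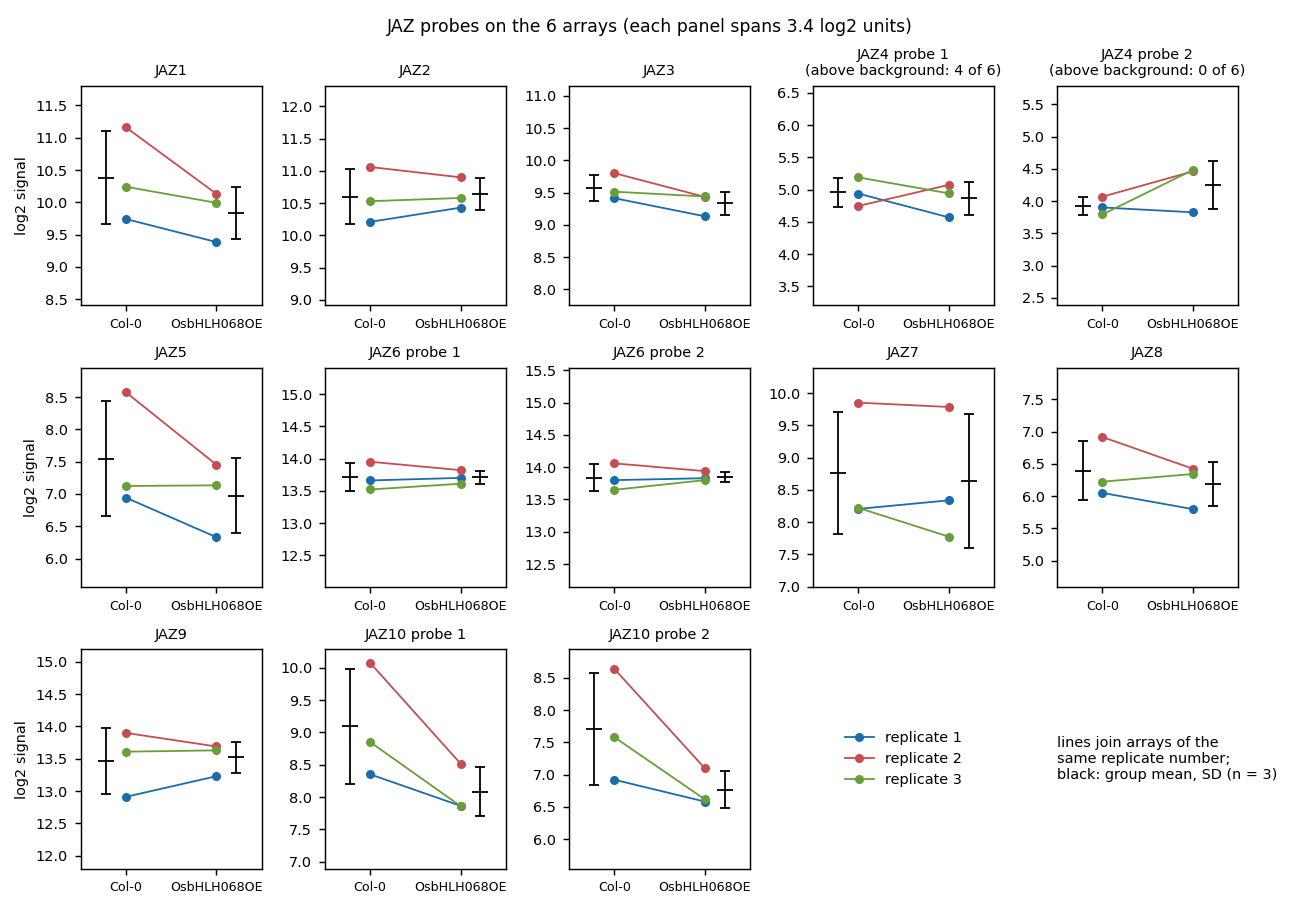
Log2 signal of the 13 JAZ probes on each array. The vertical axis is log2 signal and every panel spans the same number of log2 units. Points are arrays, lines join Col-0 and OsbHLH068OE arrays of the same replicate number, and black bars are group means with SD (n = 3). The groups overlap in all 13 panels, and the steepest falls are those of *JAZ10*.

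*JAZ10* had the largest difference among the members, with transcripts 2.02-fold and 1.93-fold lower in OsbHLH068OE than in Col-0 on its 2 probes by the group means. No JAZ probe passed the test that ignores pairing. The other members differed by less. *JAZ1* and *JAZ5* had lower means in OsbHLH068OE, while *JAZ2*, *JAZ6* and *JAZ9* had nearly equal means.

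*JAZ10* encodes a repressor whose alternatively spliced forms resist jasmonate-triggered degradation, and its transcript is a standard marker of the wound response. The oligonucleotide of its first probe is shown because this probe carried the largest JAZ difference. It has 60 bases with a GC content of 36.7%, and no part of it is set apart in capitals.

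JAZ10 probe 1: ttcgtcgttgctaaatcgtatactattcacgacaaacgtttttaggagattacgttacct

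On this probe the Col-0 arrays 1, 2 and 3 read 8.35, 10.08 and 8.85 on the log2 scale. The OsbHLH068OE arrays 1, 2 and 3 read 7.86, 8.52 and 7.86. Col-0 array 2 was the highest of all, and the highest OsbHLH068OE array lay above the lowest Col-0 array, so the groups overlapped. The mean level was 9.10 ± 0.892 (SD, n = 3) in Col-0 and 8.08 ± 0.379 (SD, n = 3) in OsbHLH068OE. The log2 fold change was −1.02 with an SE of 0.461 and a 95% confidence interval from −2.14 to 0.11, a 2.02-fold lower level (adjusted P = 0.288 in limma, and 0.0693 before adjustment).

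The second *JAZ10* probe, which the array design assigns to a different transcript model of the gene, gave the same picture. It read 6.92, 8.64 and 7.58 in Col-0 and 6.58, 7.10 and 6.62 in OsbHLH068OE. The log2 fold change was −0.95 with an SE of 0.435, a 1.93-fold lower level (adjusted P = 0.293 in limma, and 0.0722 before adjustment). Both probes read RNA of the same samples and are not independent measurements. In whole aerial tissue, less *JAZ10* RNA per cell and fewer cells with *JAZ10* RNA cannot be told apart.

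Deviations of arrays with the same replicate number correlated over 30291 probes (0.476, 0.31 and 0.152), so the numbers were also used as pairs. Pair 1 is also slide 1. On slide 2 the crossed arrays correlated too, at 0.239 (Col-0 2 with OsbHLH068OE 3) and 0.257 (Col-0 3 with OsbHLH068OE 2). These correlations do not settle how the arrays of slide 2 pair, so results by pair rest on the labels' numbers. Each OsbHLH068OE array was below the Col-0 array of its number on both *JAZ10* probes. On the first probe the differences were −0.49, −1.57 and −0.99 in pairs 1, 2 and 3, and on the second −0.34, −1.54 and −0.96. With replicate number as a block in the limma model, the first probe became a DEP, with an unadjusted P of 0.0116 and an adjusted P of 0.144. The second had an unadjusted P of 0.0204 in that model, with a log2 fold change within 1. With slide as the block, limma P was 0.0547 for the first probe and 0.0492 for the second, and within slide 2 alone the log2 fold changes were −1.28 and −1.25. Without replicate 2 of either group, the log2 fold change of the first probe was −0.74 (adjusted P = 0.604 in limma, and 0.0217 before adjustment) and that of the second was −0.65 (0.0603 before adjustment). Without Col-0 replicate 2 alone, the values were −0.52 and −0.48.

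Among the members, *JAZ1* and *JAZ5* came next in size. *JAZ1*, one of the first JAZ proteins shown to bind COI1 in the presence of the hormone, read 9.74, 11.16 and 10.24 in Col-0 and 9.38, 10.13 and 9.99 in OsbHLH068OE. Its log2 fold change was −0.55 with an SE of 0.394 (limma adjusted P = 0.474). It was lower in each pair, by differences of −0.36, −1.04 and −0.25, and with the replicate block its P in limma was 0.0445 before and 0.217 after adjustment.

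*JAZ5* carries an EAR motif, the short motif through which repressors can contact TPL without NINJA. It read 6.94, 8.58 and 7.12 in Col-0 and 6.33, 7.45 and 7.13 in OsbHLH068OE. The log2 fold change was −0.58 with an SE of 0.506 (limma adjusted P = 0.557). The third pair did not share the direction, with a difference of 0.01. When Col-0 replicate 2 was left out, *JAZ5* had a log2 fold change of −0.06 and *JAZ1* one of −0.16, and when OsbHLH068OE replicate 1 was left out these were −0.25 and −0.32.

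*JAZ3*, known from the jasmonate-insensitive *jai3* mutant that lacks the Jas motif, read 9.42, 9.80 and 9.52 in Col-0 and 9.13, 9.44 and 9.44 in OsbHLH068OE. Its log2 fold change was −0.24 with an SE of 0.143 (limma adjusted P = 0.392), and it was lower in each pair. *JAZ1*, *JAZ3* and both *JAZ10* probes made up the 4 of 11 JAZ probes above background that were lower in all 3 pairs. Over the 30299 probes above background on all arrays, 25.5% were.

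*JAZ7* and *JAZ8* encode repressors that carry an EAR motif, and JAZ8 lacks the canonical degron that COI1 recognizes. *JAZ7* read 8.21, 9.85 and 8.22 in Col-0 and 8.34, 9.78 and 7.78 in OsbHLH068OE. Array 2 was more than 1 log2 unit above the other arrays in both groups, and the log2 fold change was −0.13 with an SE of 0.664. *JAZ8* read 6.05, 6.92 and 6.22 in Col-0 and 5.80, 6.43 and 6.34 in OsbHLH068OE, a log2 fold change of −0.21 with an SE of 0.277. Neither difference exceeded the spread between arrays, with limma adjusted P values of 0.933 for *JAZ7* and 0.707 for *JAZ8*.

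The remaining members had nearly equal group means. *JAZ2*, a repressor that acts in guard cells, read 10.21, 11.06 and 10.53 in Col-0 and 10.43, 10.90 and 10.58 in OsbHLH068OE. Its log2 fold change was 0.04 with a 95% confidence interval from −0.55 to 0.63. *JAZ9*, also a member of the COI1-dependent class, read 12.91, 13.90 and 13.61 in Col-0 and 13.23, 13.69 and 13.63 in OsbHLH068OE.

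The interval for *JAZ9* ran from −0.63 to 0.72 around a log2 fold change of 0.04, and these near-equal means do not show that either gene was unaffected. *JAZ6*, whose transcript is controlled by the circadian clock, had the narrowest intervals of the members above background. Its first probe read 13.66, 13.95 and 13.52 in Col-0 and 13.70, 13.82 and 13.61 in OsbHLH068OE, and its interval ran from −0.32 to 0.33. The second *JAZ6* probe gave a log2 fold change of 0.02 with an interval from −0.29 to 0.32. *JAZ4*, which was near or below background, had log2 fold changes of −0.10 on the first probe and 0.34 on the second.

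**Figure D2:**
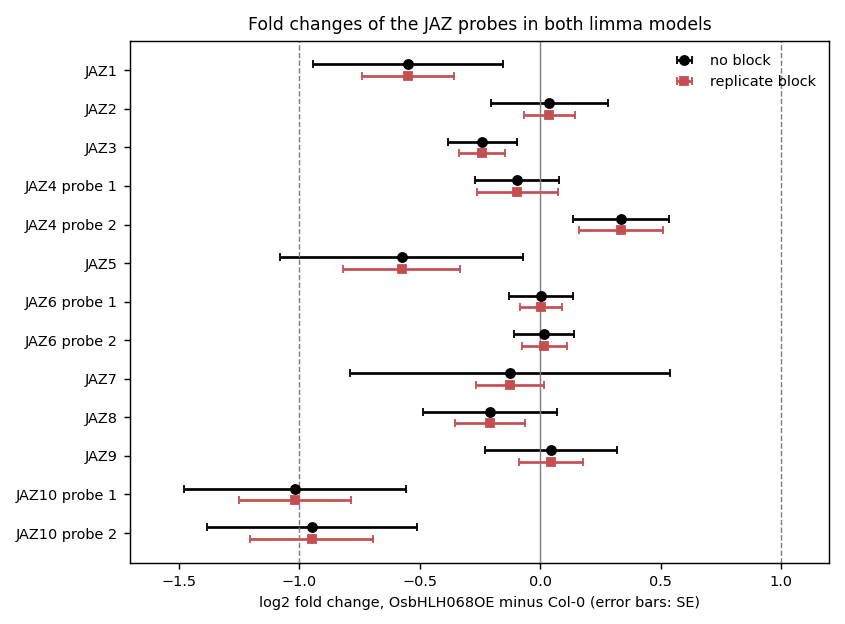
Log2 fold change of each JAZ probe, OsbHLH068OE minus Col-0, on the horizontal axis, with SE as error bars, from limma without a block (black circles) and with replicate number as a block (red squares). Dashed lines mark a log2 fold change of 1 in either direction. The estimates are the same in both models, and the error bars are shorter with the block for each probe.

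Counted together, 0 of the 13 JAZ probes were DEPs, where 0.789% of all probes were lower DEPs and 0.378% were higher DEPs. An adjusted P under 0.05 was found for 0 of 13 in limma, against 0.527% of all probes. An unadjusted limma P under 0.05 was also found for 0 of 13, against 8.89% of all probes in the lower and 10.9% in the higher direction, and the methods' t-test also gave 0 of 13. Non-overlapping groups were found for 0 of 13, where 12.3% of all probes were lower and 14.7% higher without overlap.

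With the replicate block, 1 of 13 JAZ probes was a lower DEP, against 0.949% of all probes, and 3 of 13 were lower with an unadjusted P under 0.05, against 10.1%. The 3 were *JAZ1* and both *JAZ10* probes, and 0 had an adjusted P under 0.05 in limma. The log2 fold change was negative for 8 of 13 JAZ probes and for 47.2% of all probes. Its median was −0.13 over the JAZ probes and 0.02 over all probes. This median turned to 0.05 without Col-0 replicate 2 and to 0.01 without OsbHLH068OE replicate 1, and lay between −0.32 and −0.14 when any other array was left out.

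The members varied together from array to array within each group. Col-0 array 2 was the highest of the 6 arrays for all 9 JAZ genes above background. Within Col-0, array 2 was highest for 11 of 11 JAZ probes above background, and this held for 25.2% of all 30299 probes above background. Within OsbHLH068OE, array 2 was highest for 10 of 11, against 24.6% of all probes, and *JAZ3* was the exception. The lowest of the 6 arrays was replicate 1 of either group for 7 of the 9 genes.

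The spread was wide as well as shared. The range over the Col-0 arrays had a median of 0.99 log2 units for the JAZ probes, from 0.39 to 1.73, where the median over all probes above background was 0.25. In OsbHLH068OE the medians were 0.52 and 0.18. Before normalization, Col-0 array 2 had the highest median spot signal of the arrays, at 356. The same did not hold in OsbHLH068OE, where array 2 had 308 and array 3 had 322. What sets replicate 2 apart was not tested.

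**Figure D3:**
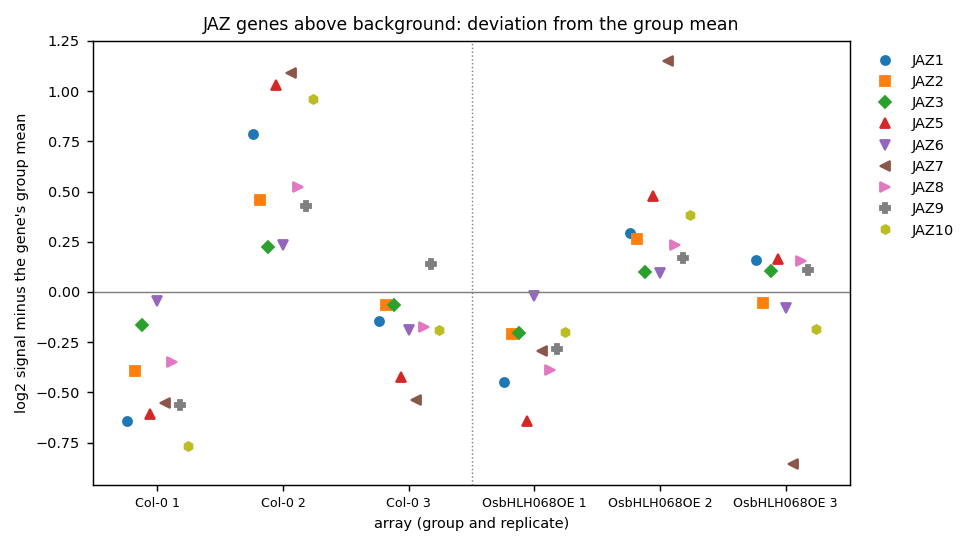
Deviation of the 9 JAZ genes above background from their own group mean, in log2 units, on each array; probes of the same gene were averaged. All 9 genes lie above their Col-0 mean on Col-0 array 2 and above their OsbHLH068OE mean on OsbHLH068OE array 2, and all lie below it on array 1 of both groups.

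The size of the difference between the groups followed the same arrays. In pair 2, the median difference of the JAZ probes above background was −0.37. Here 11 of 11 were lower in OsbHLH068OE, against 43.9% of all probes above background. This count follows from Col-0 array 2 being the highest array for each of them, and it is not a separate result. In pair 1, 6 of 11 were lower, with a median of −0.25, against 49% of all probes. In pair 3, 5 of 11 were lower, with a median of 0.01, against 46.4%. *JAZ10* was lower in OsbHLH068OE in all 3 pairs. *JAZ7*, which was high on array 2 of both groups, differed by −0.07 in pair 2.

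Between the 9 genes above background, Pearson correlations over the 6 arrays ran from 0.43 for *JAZ6* and *JAZ9* to 0.98 for *JAZ5* and *JAZ8*, with a median of 0.76 over 36 pairs of genes. These values are a description, since the points share arrays, groups and normalization. Centered on each gene, the mean JAZ level was 0.78 on Col-0 array 2 and 0.21 on OsbHLH068OE array 2. It was −0.31 and −0.04 on Col-0 arrays 1 and 3, and −0.44 and −0.20 on OsbHLH068OE arrays 1 and 3.

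Of 1921 other genes that were well above background and had a range of at least 1 log2 unit, the 5 with the profile most like this mean over the 6 arrays were AT5G26700 (r = 0.996), AT1G06620 (r = 0.985), *PGIP2* (AT5G06870, r = 0.978), AT3G51450 (r = 0.969) and AT1G31550 (r = 0.969). *PGIP2* encodes an inhibitor of fungal polygalacturonases. AT5G26700 read 5.17, 7.07 and 5.80 in Col-0 and 4.94, 6.13 and 5.47 in OsbHLH068OE. Its peak on array 2 of both groups follows from choosing it by this profile. *PGIP2* read 11.24, 12.52 and 11.56 in Col-0 and 11.17, 11.95 and 11.66 in OsbHLH068OE.

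Relatives of the members outside *JAZ1* to *JAZ10* were read by 10 probes for *JAZ11*, *JAZ12*, *JAZ13* (listed as AT3G22275), *PPD1*, *PPD2* and *TIFY8*. PPD proteins limit leaf growth and share the TIFY domain and NINJA with the JAZ repressors. None of the 10 probes was a DEP. *JAZ11* had log2 fold changes of −0.17 and −0.14, and *JAZ12* had −0.17 and −0.21, and none of these 4 probes had an unadjusted limma P under 0.05. *JAZ13* was well above background on 1 Col-0 array and 0 OsbHLH068OE arrays. Its mean was 4.63 in Col-0 and 3.79 in OsbHLH068OE (limma adjusted P = 0.181), and no fold is given at this signal. *TIFY8* had log2 fold changes of 0.34, 0.36 and 0.25 on its 3 probes (lowest limma adjusted P = 0.225), and the values for *PPD1* and *PPD2* were 0.07 and −0.18.

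Transcripts of the proteins that hold or degrade JAZ repressors differed little in size between the groups. *COI1*, the hormone receptor, *ASK1* (listed as *SKP1*), its partner in the ubiquitin ligase, *NINJA* and *TPL* were read by 6 probes, of which 0 were DEPs. The log2 fold changes lay between −0.15 and 0.08. The groups nevertheless did not overlap for 4 of 6 probes in the lower and 1 of 6 in the higher direction, against 12.3% and 14.7% of all probes. The *COI1* arrays read 11.21, 11.20 and 11.19 in Col-0 and 11.01, 11.02 and 11.16 in OsbHLH068OE. The largest in size was that of the second *TPL* probe at −0.15 (limma adjusted P = 0.361).

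Among the bHLH factors that JAZ proteins bind or that compete with them, 1 of 9 probes was a DEP and it was higher, against 0.378% of all probes. *MYC2*, the main activator of the pathway, read 11.34, 12.56 and 11.74 in Col-0 and 11.01, 11.77 and 11.73 in OsbHLH068OE, a log2 fold change of −0.38 (adjusted P = 0.588 in limma). Its highest array was Col-0 array 2, as for the JAZ genes. *MYC5* (AT5G46830, listed as *NIG1*), an activator with a role in stamens, read 5.41, 4.93 and 4.79 in Col-0 and 6.58, 6.43 and 5.93 in OsbHLH068OE. Its log2 fold change was 1.27 with an SE of 0.233 and the groups did not overlap (adjusted P = 0.0869 in limma, and 0.00155 before adjustment). The *MYC5* value was smaller with other background handling. It was 0.64 with an offset of 50 in the background correction and 0.67 with no background correction.

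*MYC4*, which acts together with *MYC2* in leaves, was the one gene of the pathway with an adjusted P under 0.05. Its first probe read 11.23, 11.13 and 11.17 in Col-0 and 11.76, 11.84 and 11.78 in OsbHLH068OE. All arrays of one group lay above all arrays of the other, and the log2 fold change was 0.61 with an SE of 0.0744 (limma adjusted P = 0.0457, and 0.117 with the replicate block). The second probe gave 0.52 with an adjusted P of 0.0763 in limma.

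Enzymes that make jasmonate were read by 23 probes for 13 genes, of which 1 was a lower DEP, against 0.789% of all probes. *LOX4*, a lipoxygenase at the start of the pathway, was lower, and it read 8.77, 9.34 and 8.41 in Col-0 and 7.66, 7.80 and 7.93 in OsbHLH068OE. The log2 fold change was −1.04 with an SE of 0.239 and no overlap (adjusted P = 0.116 in limma, and 0.00475 before adjustment). Col-0 array 2 was the highest Col-0 array for 21 of the 23 probes, where it was for 25.2% of all probes above background. Of the 23 probes, 21 were well above background on all arrays. The median log2 fold change of the list was −0.07.

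Enzymes that inactivate jasmonate were read by 12 probes for 10 genes, and 1 probe was a lower DEP, against 0.789% of all probes. *CYP94B3*, the hydroxylase that starts the removal of jasmonoyl-isoleucine, read 6.06, 7.53 and 5.81 in Col-0. In OsbHLH068OE it read 4.18, 4.34 and 3.72, none of them well above background. The log2 fold change was −2.38 with a confidence interval from −3.52 to −1.24 (adjusted P = 0.0941 in limma, and 0.00217 before adjustment). The *CYP94B3* value was smaller in size with other background handling. It was −1.08 with an offset of 50 in the background correction and −1.09 with no background correction. No minimum fold is given, because the OsbHLH068OE signals were not well above background. Col-0 array 2 was the highest Col-0 array for 10 of the 12 probes, against 25.2% of all probes above background. That share covers brighter probes, since only 5 of the 12 were well above background on all arrays. In the other pathway lists this count was 11 of 19 for output, 5 of 9 for bHLH factors and 3 of 6 for receptor and co-repressors. For the JAZ and TIFY relatives it was 4 of 10. The median log2 fold change of the list was −0.41.

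Genes of the jasmonate output were read by 19 probes for 11 genes, with 1 lower DEP, against 0.789% of all probes, and a median log2 fold change of −0.53. *ERF1*, an ethylene and jasmonate response factor, read 6.34, 8.26 and 7.73 in Col-0 and 5.45, 6.21 and 6.59 in OsbHLH068OE. The groups overlapped, and the log2 fold change was −1.36 with an SE of 0.542 (adjusted P = 0.245 in limma, and 0.0460 before adjustment). *PDF1.2*, a defensin, had the largest value of the list and is named after its values were seen. It read 12.19, 14.69 and 13.19 in Col-0 and 8.24, 10.85 and 12.89 in OsbHLH068OE, a log2 fold change of −2.70 with an SE of 1.25 (adjusted P = 0.296 in limma). Signals of *PDF1.2* and its near-identical copy *PDF1.2b* (log2 fold change −2.61) may not be separable on the array. The list held values in the other direction as well, in 5 of its 19 probes. *THI2.1*, a thionin, had log2 fold changes of 0.91 and 0.81 on its 2 probes (limma adjusted P = 0.398 and 0.41), and *CORI3* had 0.17, 0.29 and 0.29. Within slide 2 alone, the *THI2.1* values were 1.69 and 1.47, while the pair on slide 1 differed in the other direction, by −0.644 and −0.515.

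The probes of the 4 pathway DEPs are shown, because the pathway count rests on them.

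CYP94B3: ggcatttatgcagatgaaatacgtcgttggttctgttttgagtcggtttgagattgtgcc
LOX4: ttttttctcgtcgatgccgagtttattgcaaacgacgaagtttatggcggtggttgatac
ERF1: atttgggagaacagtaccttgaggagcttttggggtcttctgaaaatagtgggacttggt
MYC5: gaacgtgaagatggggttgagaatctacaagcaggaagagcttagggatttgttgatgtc

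**Figure D4:**
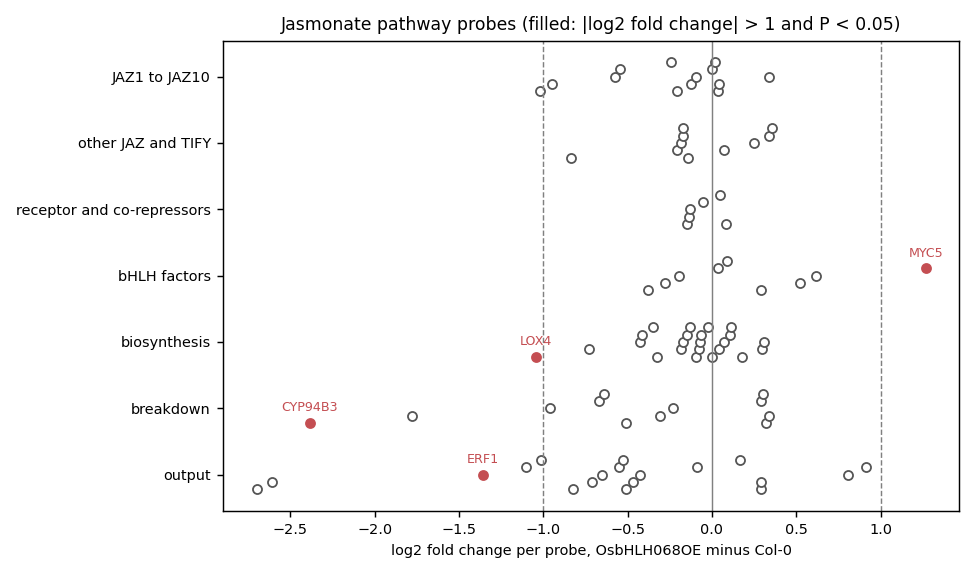
Log2 fold change per probe, OsbHLH068OE minus Col-0, on the horizontal axis for the JAZ members and the pathway lists; vertical offsets within a list only separate the points. Filled red points are DEPs, named by gene, and open points are the other probes. The JAZ row and the row of receptor and co-repressors hold 0 DEPs.

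Over the 5 pathway lists, 3 of 69 probes were lower DEPs, against 0.789% of all probes, and 1 was a higher DEP, against 0.378%. The log2 fold change was negative for 44 of the 69, against 47.2% of all probes, with a median of −0.13. With the replicate block there were 6 lower DEPs, against 0.949% of all probes, and 1 higher DEP, against 0.39%, the additional ones being lower values of *PDF1.2*, *PDF1.2b* and *JOX3* (AT3G55970, listed as *JRG21*), a jasmonate oxidase. Leaving out 1 array gave between 2 and 8 pathway DEPs, with 2 without Col-0 replicate 2, 8 without Col-0 replicate 1 and 7 without OsbHLH068OE replicate 3.

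Genes that respond within minutes to touch and wounding were read by 14 probes for 9 genes. Of these probes, 7 were lower DEPs and 0 were higher DEPs, against 0.789% and 0.378% of all probes, and the median log2 fold change was −1.01. The DEPs read 4 of the 9 genes, *MYB44*, *TCH2*, *TCH4* and *ZAT12*, while *WRKY53* had log2 fold changes of 0.39 and 0.45 that did not pass. This list was drawn up knowing that genes of this kind were lower in these data. *TCH4*, a cell wall enzyme, was lower by a log2 fold change of −2.82 (adjusted P = 0.0280 in limma). Col-0 array 2 was the highest Col-0 array for 4 of the 14 probes, against 25.2% of all probes above background and 11 of 11 JAZ probes above background. What part this list has in the *JAZ10* difference was not tested.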

How the data were processed

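Aerial tissue of 3 Col-0 and 3 OsbHLH068OE samples was read on 6 single-color arrays. The authors deposited intensity values, the median spot and local background signals and the processed signal of Feature Extraction 10.7.1.1, and a table of log2 values that limma produced from every spot by normexp correction followed by quantile normalization. Repeating these steps from the median signals gave the deposited log2 values to within 5.00e-09.

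The deposited log2 values of 43603 probes were used, with 12 values from spots marked as outliers left out. They were compared with lmFit and eBayes (limma 3.58.1, R 4.3.3, data.table version 1.17.8; constant prior with 2.03 degrees of freedom), without a filter on dim probes. P values were adjusted by Benjamini-Hochberg over all probes. A DEP had a log2 fold change beyond 1 and an unadjusted P under 0.05, the thresholds of the study's methods. No coordinates were used, because the genome build in the scanner headers is not that of the RefSeq annotation. Probes were named through RefSeq transcripts of TAIR10.1, which gave a gene for 34358 probes (78.8%, 25433 genes). *TCH3* of the touch list had no matched probe. Probe sequences came from the study's own annotation of its probes, and the genome position of a probe was not analysed here.

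Deviations from the group means of arrays with the same replicate number correlated at 0.476, 0.31 and 0.152 over 30291 probes, and the numbers were taken to pair the samples, although Col-0 array 3 correlated more with OsbHLH068OE array 2 (0.257). Col-0 array 2 with OsbHLH068OE array 3 reached 0.239, so this check does not settle the pairing within slide 2. The pairing comes from the labels' replicate numbers.

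The text names all JAZ members and TIFY relatives. Of each pathway list it names the genes with a DEP or an adjusted P under 0.05, otherwise the gene with the largest change, and it names the 5 genes most like the JAZ mean. *MYC2*, *COI1*, *PDF1.2*, *PDF1.2b*, *JOX3*, *THI2.1* and *CORI3*, and the marker and touch genes, are named outside this rule, after their values were seen. Members and lists were chosen with earlier results of these data known. The alternatives were other background corrections (offset 50 or none) and normalizations, outlier spots kept, an intensity trend, a filter on dim probes, the methods' t-test, replicate or slide as a block, slide 2 alone, gene means, a 1.5-fold threshold and leaving out each array. Leaving out replicate 2 of both groups and a trend with an ordinary prior were added after seeing the data. A mean spot signal had been planned for the normexp alternative, but the median signal was used. The fit was tested on simulated arrays.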

Additional observations from a re-analysis of the deposited data

How the results depend on the processing

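Precision is limited by the number of arrays, and *JAZ4* is limited by its signal, which was near background. The count of JAZ DEPs, 0 as reported, was 1 with the replicate block, 1 within slide 2 (the second *JAZ10* probe) and 1 with an intensity trend and ordinary prior, and between 0 and 2 when 1 array was left out, with 2 without Col-0 replicate 1 (both *JAZ10* probes). It stayed at 0 in the other alternatives, as did the count of JAZ probes with an adjusted P under 0.05 in all of them. Both *JAZ10* probes were lower throughout, with log2 fold changes from −1.39 to −0.52 and from −1.34 to −0.48, and *JAZ1*, *JAZ3* and *JAZ5* had negative log2 fold changes in all 21 alternatives that were run for them, from −0.87 to −0.16, −0.32 to −0.13 and −0.88 to −0.06. The JAZ median log2 fold change lay between −0.32 and 0.05 with 1 array left out. Pathway DEPs, 4 as reported, were 2 with a normexp offset of 50 and 2 with no background correction, 7 with the replicate block, 7 with the slide block, 7 within slide 2 and between 2 and 8 with 1 array left out. *CYP94B3* was a DEP in all 21 alternatives, *MYC5* in 19, *LOX4* in 16 and *ERF1* in 13, and the first *MYC4* probe had an adjusted P under 0.05 in 11. The cause of these changes was not tested.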
